A study of Homo sapiens with 60 samples.

Results

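The 78 genes described here encode the protein subunits of the cytosolic ribosome. They were taken by symbol from the 60675 rows of the count table: protein-coding RPL and RPS genes, with RPLP0, RPLP1, RPLP2 and RPSA, leaving out pseudogenes, the RPS6K kinases and any gene on the Y chromosome. Of 81 candidates, 78 reached a mean of at least 1 CPM (counts per 1e6 counts) in some group, 46 of the large and 32 of the small subunit, and all 78 were among the 17049 genes tested. The tissue-restricted relatives RPL10L, RPL39L and RPL3L did not reach it. The highest group means were 0.0186 CPM for RPL39L and 0.206 CPM for RPL3L, and RPL10L had no count in any library.

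The cells were HT29, an established human colorectal adenocarcinoma line, and RNA was taken after 24 h. The extracts were hot-water extracts of the single herbs Menthae Herba and Saposhnikoviae Radix and of formulas that combine herbs (Okbyeongpung-san, Soyo-san, Soshiho-tang, Guibi-tang and Saengmaek-san), each at 20, 100 and 500 µg/mL (low, medium and high dose). Soshiho-tang had 1 library per dose and entered no test, each dose of the other 6 extracts had 3 libraries, and 3 vehicle libraries came from cells given DMSO, at 0.1% in the sample labels and at 2% in the series' design text. Whether extract-treated cells also received DMSO is not in the labels, nor is whether replicates were separate cultures, so the p-values rest on how much these libraries vary, which could be technical variation alone.

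Each ribosome holds 1 copy of nearly every ribosomal protein, so cells make them in near-equal numbers, and surplus protein that finds no ribosomal RNA is degraded. Their mRNAs usually begin with a C followed by an unbroken run of pyrimidines, the 5′ terminal oligopyrimidine (TOP) tract. Through LARP1 and the mTOR pathway the tract makes their translation, and in part their stability, respond to nutrients and growth factors. In colorectal tumour cells, MYC is a known driver of ribosome production.

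The library names carry 3 numbers: a set, a round within the set and a position. Menthae Herba and Saposhnikoviae Radix form set 5, Saengmaek-san and Guibi-tang set 6, Soyo-san and Okbyeongpung-san set 7 and Soshiho-tang set 8. Rounds 1, 2 and 3 of sets 5 to 7 each hold 6 libraries, 1 of every group in the set, and the labels do not say what a round stands for. In an earlier analysis the libraries fell into an earlier part of 31, which holds all vehicle libraries, and a later part of 29. They changed over within round 2 of set 6, where the last 2 libraries belong to the later part. That cut came from all genes, these 78 included, so the later against earlier values below describe it and do not test it, whereas the rounds come from the labels alone.

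Total counts, in units of 1e6, were 19.5 to 32.0 (median 24.9) in the later and 23.4 to 41.9 (median 34.7) in the earlier libraries. Mitochondrially encoded genes took 8.74% to 12.4% of counts in the later and 8.65% to 12.6% in the earlier libraries, with 11.3%, 11.4% and 12.1% in vehicle. All 8 markers of colonic epithelium were present in all 60 libraries. The 4 leukocyte markers summed to 1171 to 1614 CPM in the later and 1394 to 1704 CPM in the earlier libraries, nearly all of it LYZ. The fibroblast, endothelial and hepatocyte markers summed to at most 2.45 CPM per library and list.

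The start sites below are those of the members whose level differed most between round 3 and round 1 of set 6, and of RPLP0, a stalk protein that did not pass the test, and they show how the TOP start looks in members that went opposite ways. RefSeq promoter entries (GRCh38.p14) matched 63 of the 78 members. Each line gives 15 bases before and 15 bases from 1 annotated start, 5′ to 3′ on the gene's strand, with the pyrimidine run that spans the first transcribed base in capitals. The windows of RPL28 (chr19:55385917-55385946, plus strand), RPL11 (chr1:23691791-23691820, plus strand), RPL35 (chr9:124861943-124861972, minus strand), RPL38 (chr17:74203663-74203692, plus strand) and RPS26 (chr12:56041903-56041932, plus strand) come first. Those of RPS12 (chr6:132814554-132814583, plus strand), RPL39 (chrX:119791616-119791645, minus strand), RPL41 (chr12:56116618-56116647, plus strand), RPS27A (chr2:55232673-55232702, plus strand), RPS29 (chr14:49598696-49598725, minus strand) and RPLP0 (chr12:120201097-120201126, minus strand) follow.
RPL28: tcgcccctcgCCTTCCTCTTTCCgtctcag
RPL11: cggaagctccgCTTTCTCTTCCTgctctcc
RPL35: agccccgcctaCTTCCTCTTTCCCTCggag
RPL38: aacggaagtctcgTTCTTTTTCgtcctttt
RPS26: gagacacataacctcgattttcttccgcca
RPS12: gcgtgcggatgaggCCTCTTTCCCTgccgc
RPL39: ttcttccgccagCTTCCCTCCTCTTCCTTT
RPL41: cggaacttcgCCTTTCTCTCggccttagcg
RPS27A: tgcgcggcgTTCTTCCTTTTCgatccgcca
RPS29: ccccgagcgcgcagCTggcagcggtggttg
RPLP0: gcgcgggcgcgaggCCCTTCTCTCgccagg
A start with 5 pyrimidines in its first 5 bases was annotated for 46 of the 63 matched members (73.0%), against 1774 of the 27305 genes of the table with a RefSeq start (6.50%). It was found in 16 of 26 matched members that were higher in round 3 of set 6, in 8 of 9 that were lower and in 22 of 28 that were not called. RPL28 and RPL11, which were higher, and RPL41 and RPS12, which were lower, thus share this kind of start, whereas RPS26 and RPS29 do not show it at the start printed.

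In vehicle, the members ran from 49.6 to 2118 CPM with a median of 495 CPM. Per kilobase of annotated transcript, which is the scale on which genes can be set against each other, 70 members could be ranked. The other 8, among them RPL22, RPL37A and RPS27L, have an annotated principal transcript of over 2000 bases that may not be the one used. The same doubt touches ranked members such as RPS28, RPL23A and RPL31. Their transcripts of 1326, 1562 and 825 bases far exceed their coding lengths of 207, 468 and 375 bases. RPS2, a small-subunit protein at the mRNA entry side, was highest at 2090 ± 50.5 CPM per kilobase (SD, n = 3), and RPL13A at 1793 ± 48.0 and RPL41 at 1688 ± 88.5 were also among the 5 highest. RPS28 was lowest at 107 ± 6.1 CPM per kilobase, a place that rests on the transcript length used, below RPS29 at 182 ± 5.89, RPL31 at 304 ± 7.75, RPL23A at 312 ± 6.65 and RPL14 at 319 ± 9.25. The neighbours RPL31, RPL23A and RPL14 lay within about 1 or 2 SD of each other, while RPS29 and RPS28 stood clear of the rest. Counts of very short mRNAs depend on how fragments were selected by size, and their part in the low values was not tested.

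**Figure D1:**
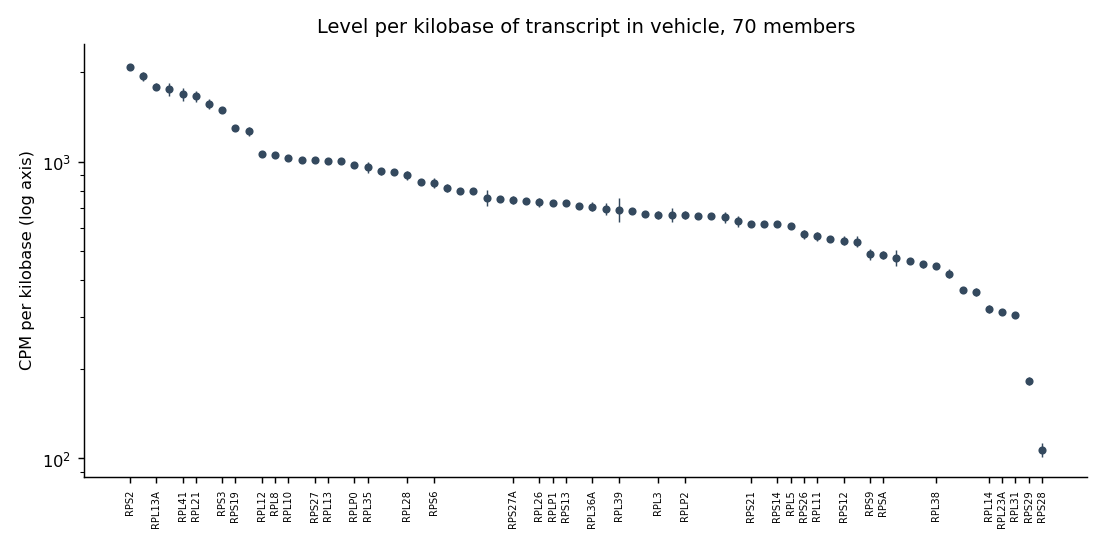
Level of 70 members in the 3 vehicle libraries, as CPM per kilobase of the annotated principal transcript (log axis), mean with SD, in descending order, with the members described in the text labelled. Levels fall gradually from RPS2 at 2090 to RPL31 at 304 CPM per kilobase, and RPS29 and RPS28 lie below.

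The P-stalk proteins, which recruit the translation factors to the ribosome, were at 976 ± 10.3 (RPLP0), 728 ± 10.9 (RPLP1) and 662 ± 20.2 (RPLP2) CPM per kilobase. RPL5 and RPL11, which carry the 5S ribosomal RNA and, when free, bind the p53 regulator MDM2, were at 606 ± 6.94 and 560 ± 18.6. The transcripts used for RPL11 and RPLP1, of 1017 and 1197 bases, far exceed their coding lengths of 534 and 342 bases. The levels per kilobase of both therefore rest on the transcript length used. RPS19 and RPS14, whose loss underlies Diamond-Blackfan anaemia and the 5q- syndrome, were at 1303 ± 13.5 and 616 ± 13.0. RPS6, the substrate of S6 kinase, was at 847 ± 33.1 and RPSA, also known as the laminin receptor precursor, at 486 ± 15.4 CPM per kilobase. Levels per kilobase thus differed between these members, from 486 for RPSA to 1303 for RPS19, by amounts that rest on the transcript lengths used.

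Whether an extract altered ribosomal protein mRNAs was asked by comparing each dose with the 3 vehicle libraries, which all 18 comparisons share. None of the 78 members differed from vehicle at any dose of Menthae Herba, Saposhnikoviae Radix, Saengmaek-san or Guibi-tang (edgeR quasi-likelihood test, Benjamini-Hochberg adjusted p under 0.05 over all genes). Each group of Saengmaek-san and Guibi-tang mixes earlier and later libraries, and the 0 calls there depend on which libraries enter. With its 2 earlier libraries alone, the high dose of Saengmaek-san had called members. So had the low dose of Guibi-tang without its 1 earlier library. The share of all genes called in those fits is not given, and the shares that follow belong to the fit of 57 libraries. The share of all tested genes called, in either direction, was 0.0587%, 0.739% and 8.57% at the low, medium and high dose of Menthae Herba, 0.170%, 0.0293% and 0.499% for Saposhnikoviae Radix, 0.0938%, 0.416% and 4.28% for Saengmaek-san and 0.850%, 1.07% and 2.26% for Guibi-tang. At an unadjusted p under 0.05, 8, 3 and 3 members differed at the low, medium and high dose of Menthae Herba, 2, 4 and 4 for Saposhnikoviae Radix, 0, 2 and 7 for Saengmaek-san and 32, 7 and 1 for Guibi-tang. DESeq2's test called 1 member lower at the high dose of Menthae Herba, 2 members higher at the low dose of Guibi-tang and none in the other 10 of these comparisons. The median log2 change of the members, extract over vehicle, lay between -0.02 and 0.02 in set 5 and between 0.02 and 0.14 in set 6, beside a median of all tested genes between -0.00 and 0.01.

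Among the fixed readouts, RPS27L, a p53-inducible relative of RPS27, came closest to the threshold at the high dose of Menthae Herba. RPS27L had 45.3, 41.7 and 44.0 CPM with Menthae Herba at 500 µg/mL, against 49.5, 47.1 and 52.3 CPM in vehicle. All 3 extract libraries lay below all 3 vehicle libraries, at a log2 change of -0.18 ± 0.06 that missed the threshold (edgeR adjusted p = 0.0622). It passed, with changes of -0.18 and -0.19, when a term for the part of the numbering was added (adjusted p = 0.0472) and with the earlier libraries alone (adjusted p = 0.0217). The members' median standard error at this dose was 0.07 on the log2 scale, and the widest 95% intervals reached -0.44 and 0.55.

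In set 7 a few members passed the threshold. Soyo-san had 1, 7 and 4 members higher than vehicle at the low, medium and high dose and none lower, where 2.04%, 5.57% and 8.03% of all tested genes were called higher. Okbyeongpung-san had 4 members higher at the low dose, 2 lower at the medium dose and 1 higher at the high dose, where 4.74%, 1.58% and 4.36% of all tested genes were called in the same direction. The share of the 78 members was 1.28%, 8.97% and 5.13% for Soyo-san and 5.13%, 2.56% and 1.28% for Okbyeongpung-san, below the share of all genes in 3 of these 6 comparisons and above it in the other 3. The median member change was 0.05, 0.12 and 0.10 for the low, medium and high dose of Soyo-san and 0.07, -0.00 and 0.08 for Okbyeongpung-san.

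RPL3, a large-subunit protein that reaches towards the peptidyl transferase centre, was called in 5 of the 6 comparisons of set 7. It had 1072, 1135 and 1078 CPM at the low, 1123, 1252 and 1126 CPM at the medium and 1125, 1121 and 1113 CPM at the high dose of Soyo-san, against 992, 935 and 941 CPM in vehicle. With Okbyeongpung-san it had 1102, 1115 and 1138 CPM at the low, 1096, 973 and 1105 CPM at the medium and 1079, 1073 and 1137 CPM at the high dose. Of these 18 extract libraries, 17 lay above the highest vehicle library, and 1 library of the medium dose of Okbyeongpung-san did not. The log2 change ran from 0.20 ± 0.06 (SE) at the low dose of Soyo-san, with an edgeR adjusted p of 0.0467, to 0.29 ± 0.06 at its medium dose, with an adjusted p of 0.00144.

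RPS9, which takes part in decoding fidelity, rose by 0.22 ± 0.07 at the medium dose of Soyo-san and at the low dose of Okbyeongpung-san. RPL8, at the peptidyl transferase centre, rose by 0.22 ± 0.07 and 0.19 ± 0.07 at the medium and high dose of Soyo-san, and RPL4 by 0.17 ± 0.05 at the low dose of Okbyeongpung-san.

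The 2 members that fell were RPS27A and RPS13, both at the medium dose of Okbyeongpung-san. RPS27A, which is made as a fusion with ubiquitin, had 387, 352 and 406 CPM there, against 510.2, 523 and 543 CPM in vehicle, a log2 change of -0.46 ± 0.12 (edgeR adjusted p = 0.0248). RPS13, of the small subunit, had 398, 360 and 395 CPM, against 481, 461 and 468 CPM in vehicle, a change of -0.29 ± 0.07 (adjusted p = 0.0190). In both, the 3 extract libraries lay below all vehicle libraries.

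All libraries of set 7 are in the later part of the numbering and all vehicle libraries in the earlier part, so the extract and the part cannot be told apart in the comparisons of set 7 with vehicle. With a term for the part added, which only the 6 groups of set 6 with libraries in both parts can estimate, none of the 19 calls above remained. That fit called 11, 1 and 5 members lower and none higher at the low, medium and high dose of Soyo-san, and 9, 10 and 3 members lower and none higher at those of Okbyeongpung-san. It called 1.95%, 1.40% and 3.24% of all genes lower for Soyo-san and 2.35%, 0.968% and 1.05% for Okbyeongpung-san. RPL12, a base of the stalk, was among the members then called lower, by -0.29 at the low and -0.28 at the high dose of Soyo-san, and RPL37 by -0.45 at the medium dose of Okbyeongpung-san.

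**Figure D2:**
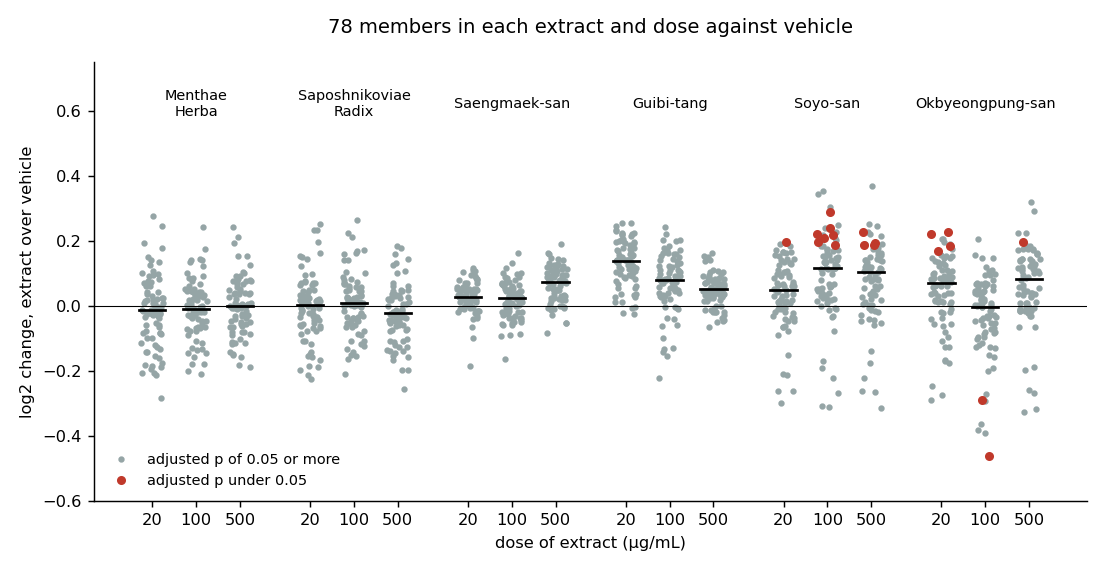
Log2 change of the 78 members, extract over vehicle, in each of 18 comparisons, in the order of dose (20, 100 and 500 µg/mL) within each extract, with points jittered, black bars at the median and red points past an adjusted p of 0.05. The medians lie between -0.02 and 0.14, and red points appear in Soyo-san and Okbyeongpung-san, whose libraries all belong to the later part of the numbering.

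Comparisons that need no vehicle library gave no call. Between the high and the low dose of each of the 6 extracts, 0 of the 78 members passed the threshold in edgeR and also 0 in DESeq2, where edgeR called 2.36% of all genes for Menthae Herba, 0.0293% for Saposhnikoviae Radix, 0.0235% for Saengmaek-san, 0.352% for Guibi-tang, 0.129% for Soyo-san and 0.00587% for Okbyeongpung-san. At an unadjusted p under 0.05, 1 member differed for Menthae Herba, 3 for Guibi-tang and none for the other 4 extracts. The member with the smallest p for Menthae Herba was again RPS27L, at -0.16 in the high against the low dose. The median member change, high over low dose, was between -0.09 in Guibi-tang and 0.04 in Saengmaek-san. Of the Guibi-tang libraries, 1 of 3 at the high and 2 of 3 at the low dose belong to the later part, so that comparison is not balanced for the part. All these comparisons, those with vehicle included, come from 1 fit without the round, in which the groups share the estimate of spread. The change between rounds of set 6 described below therefore enters the standard errors in every set. The 0 calls there are limited by it. The pairs of extracts that share a set also gave 0 calls at the high dose in both edgeR and DESeq2. Menthae Herba over Saposhnikoviae Radix had a median change of 0.02 (1 member at an unadjusted p under 0.05, 1.10% of all genes called) and Soyo-san over Okbyeongpung-san 0.02 (0 members at an unadjusted p under 0.05, 0% of all genes called).

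Between library rounds, members passed the test in set 6. There, round 3 over round 1, with the treatment groups balanced, 32 members were higher and 9 lower, where 12.0% of all genes were called higher and 11.0% lower. Their changes ran from -0.48 to 0.42 with a median of 0.09, beside a median of 0.00 over all genes. The 6 libraries of round 3 lay all above or all below those of round 1 in 34 of the 78 members, against 10.3% of all tested genes. In set 5 edgeR called 0 members (0 at an unadjusted p under 0.05 and 0 in DESeq2, 0.136% of all genes called), with changes between -0.05 and 0.06. In set 7 edgeR called 0 members (12 at an unadjusted p under 0.05 and 1 in DESeq2, 0.0885% of all genes called), with changes between -0.10 and 0.23. The change in set 6 differed from that in set 5 in 16 members and from that in set 7 in 25 members, by the test of the difference itself, which called 8.78% and 11.1% of all genes.

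**Figure D3:**
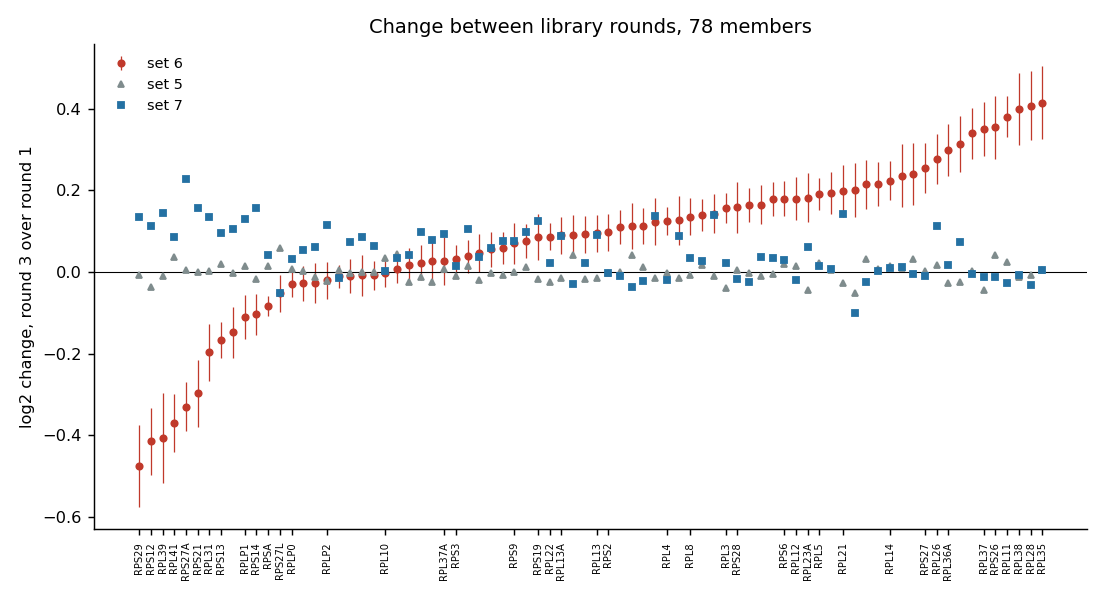
Log2 change of each of the 78 members, round 3 over round 1, in sets 6, 5 and 7, sorted by the change in set 6, whose points have their standard error as bars; members described in the text are labelled. Set 6 runs from -0.48 (RPS29) to 0.42 (RPL35), whereas set 5 stays between -0.05 and 0.06 for the same genes and set 7 between -0.10 and 0.23.

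Among the members that rose in round 3 of set 6, RPL28, a large-subunit protein, had a lowest, median and highest level of 837, 967 and 1067 CPM in round 3, against 674, 727 and 746 CPM in round 1. RPL11 had 677, 712 and 745 CPM in round 3, against 529, 543 and 563 CPM in round 1. RPL38, known in the mouse for the translation of Hox mRNAs, had 223, 241 and 267 CPM in round 3, against 178, 185 and 198 CPM in round 1. In all 3 every library of round 3 stood above every library of round 1, at log2 changes of 0.41 ± 0.08, 0.38 ± 0.05 and 0.40 ± 0.09 (edgeR adjusted p = 6.50e-04, 1.25e-06 and 0.00115). RPL35, at the mouth of the exit tunnel where the signal recognition particle docks, rose by 0.42 ± 0.09 and RPS26, which lines the mRNA exit channel, by 0.35 ± 0.08, likewise with no overlap.

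Of the 9 members that fell, 6 belong to the small subunit, against 10 of the 32 that rose. RPS12 had 256, 277 and 334 CPM in round 3, against 350.0, 370.2 and 417 CPM in round 1. RPL41, the shortest ribosomal protein, had 495, 681 and 717 CPM in round 3, against 807, 823 and 916 CPM in round 1. RPL39, which lines the exit tunnel, had 209.7, 236 and 284 CPM in round 3, against 293, 319 and 348 CPM in round 1. None of these ranges overlapped, at log2 changes of -0.41 ± 0.08, -0.37 ± 0.07 and -0.41 ± 0.11 (edgeR adjusted p = 3.89e-04, 2.77e-04 and 0.00719). RPS27A fell by 0.33 ± 0.06 with no overlap, and RPS29, a zinc-binding small-subunit protein named here after its values were seen, fell by 0.48 ± 0.10 with overlapping ranges.

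Other members changed less between these rounds. RPLP0 had 1161, 1248 and 1301 CPM in round 3, against 1184, 1261 and 1323 CPM in round 1, and RPLP2, RPL10 (which joins the large subunit late in its assembly) and RPL37A changed by -0.02 ± 0.05, -0.00 ± 0.04 and 0.03 ± 0.06. RPL5, the partner of RPL11, rose by 0.19 ± 0.04, RPS6 by 0.18 ± 0.04, RPL3 by 0.16 ± 0.04, RPL26 by 0.28 ± 0.06, RPS27 by 0.26 ± 0.06 and RPL22 by 0.09 ± 0.03. RPSA fell by 0.08 ± 0.02. RPLP1, RPS3, RPS14, RPS19 and RPS27L did not pass the threshold, with changes of -0.11 ± 0.05, 0.03 ± 0.04, -0.10 ± 0.05, 0.09 ± 0.06 and -0.05 ± 0.05.

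Round 2 against round 1 of set 6 gave 0 called members in edgeR (1 at an unadjusted p under 0.05, 0.908% of all genes called), with 2 of its 6 libraries in the later part. RPL28 had 636, 705 and 1025 CPM in round 2, the highest value being that of a later library. Taken by part, RPL28 had 837 to 1067 CPM in the 8 later and 636 to 746 CPM in the 10 earlier libraries of set 6, and RPL11 had 677 to 745 CPM in the later and 527 to 563 CPM in the earlier ones. The ranges of both genes did not overlap.

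**Figure D4:**
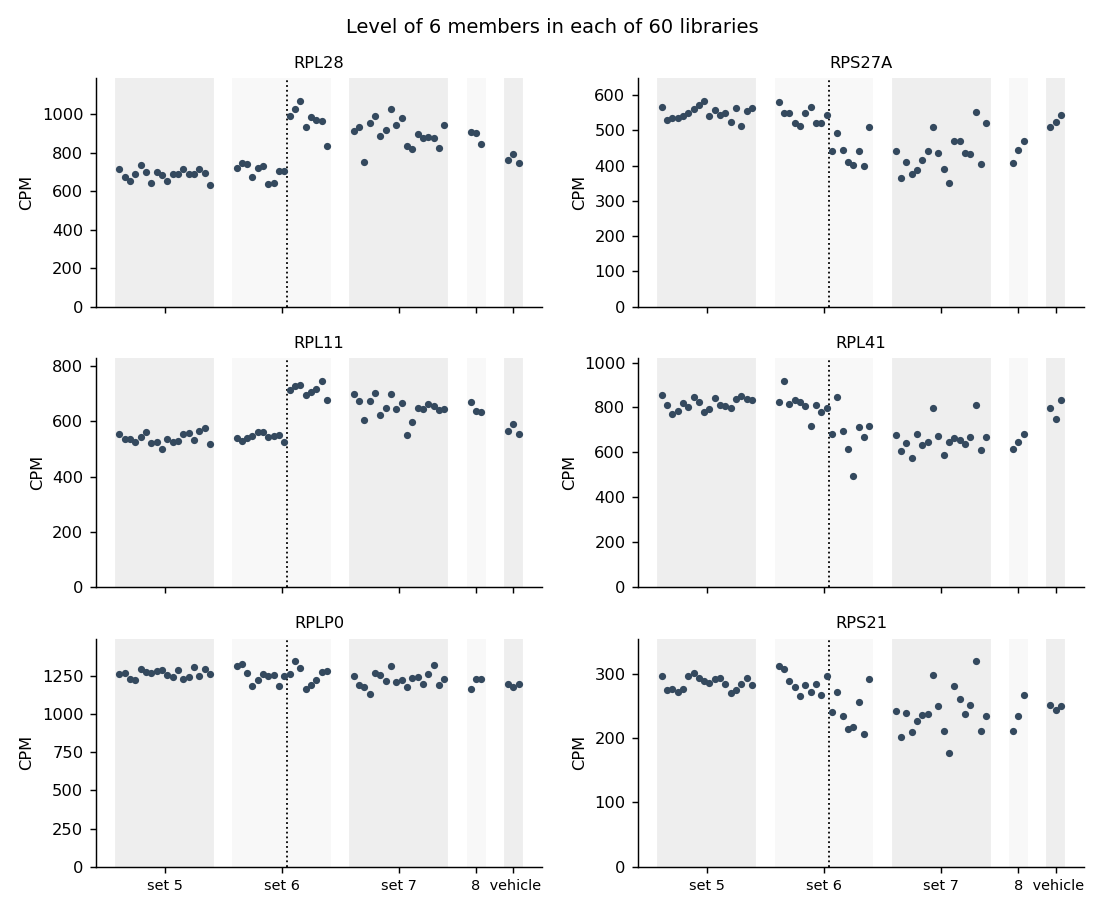
Level in CPM of RPL28, RPL11 and RPLP0 (left) and RPS27A, RPL41 and RPS21 (right) in each of the 60 libraries in the order of their names, with sets shaded, the label 8 standing for set 8, vehicle at the right, and a dotted line where the later part begins. RPL28 is between 837 and 1067 CPM in the later and between 636 and 746 CPM in the earlier libraries of set 6, and RPLP0 shows no such step.

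With the part as a term beside the treatment groups, 46 members were higher and 10 lower in the later than in the earlier part, where 15.9% and 13.7% of all genes were called. The estimate comes from the 18 libraries of set 6, whose 6 groups alone have libraries in both parts, so it largely restates the change between its rounds, and since the parts were cut on these data the counts are a description. RPL28 was higher by 0.47 ± 0.05, RPL38 and RPL35 by 0.45 ± 0.05 and 0.45 ± 0.06 and RPL11 by 0.38 ± 0.03, whereas RPS29, RPL39 and RPS12 were lower, at -0.50 ± 0.07, -0.41 ± 0.09 and -0.40 ± 0.06. RPLP0, RPLP2 and RPS27L had changes of -0.01 ± 0.03, 0.00 ± 0.04 and 0.00 ± 0.04. No member had all 29 later libraries on 1 side of all 31 earlier ones, which 0.393% of all tested genes had. The members' share of all counts was 4.43% to 5.67% (median 5.13%) in the later and 4.72% to 5.07% (median 4.87%) in the earlier libraries.

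The 32 members that were higher and the 9 that were lower in round 3 of set 6 were then followed in the other sets. Sets 5 and 7 were in the same fit, where they have round terms of their own and help to set the spread, and set 8 and vehicle were not in it. In each library the mean log2 level of a class was taken relative to the vehicle mean, and the gap is the higher class minus the lower class. In the 18 libraries of set 7 the gap was 0.05 to 0.49 (median 0.30) and in the 3 libraries of set 8 it was 0.17, 0.31 and 0.46 at the low, medium and high dose of Soshiho-tang. In the 18 libraries of set 5 it was -0.30 to -0.08 (median -0.21), against -0.05 to 0.06 in vehicle. Set 8 lay above and set 5 below all vehicle libraries, and set 7 lay above them except at its low end, which reached into the range of vehicle. In single genes, RPL28 had 845, 902 and 907 CPM and RPS27A 469, 445 and 407 CPM at the low, medium and high dose of Soshiho-tang. Within set 6, whose rounds chose the classes, the gap was 0.13 to 0.48 in the 8 later and -0.25 to -0.07 in the 10 earlier libraries, which the choice largely fixes.

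**Figure D5:**
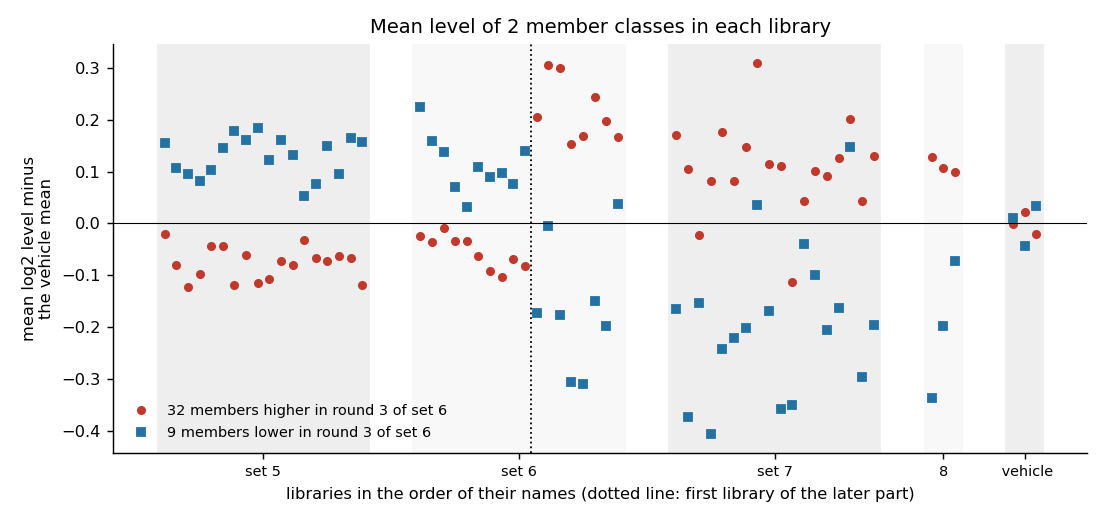
Mean log2 level, relative to the vehicle mean, of the 32 members higher (circles) and the 9 members lower (squares) in round 3 of set 6, in each of 60 libraries in the order of their names, the label 8 standing for set 8. Set 6 chose the classes, so its step at the dotted line follows from the choice; outside it the gap is 0.05 to 0.49 in set 7 and -0.30 to -0.08 in set 5, against -0.05 to 0.06 in vehicle.

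Per member, the change in set 6 correlated with the mean difference of set 7 from vehicle (Pearson r = 0.806, Spearman rho = 0.648, n = 78 genes) and of the 3 libraries of set 8 from vehicle (r = 0.841, rho = 0.726). It correlated with opposite sign with the mean difference of set 5 from vehicle (r = -0.831, rho = -0.825). These are descriptions across genes, which are not independent, and the 3 differences share the vehicle libraries.

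Within the earlier part, vehicle and set 5 differed too. In 7 members all 18 libraries of set 5 lay above all 3 vehicle libraries (1.97% of all tested genes did) and in 6 members below (2.39%). RPS21, of the small subunit, had a lowest, median and highest level of 270.4, 285 and 301 CPM in set 5, against 243, 250 and 251 CPM in vehicle. RPL12 had 565, 595 and 629 CPM in set 5, against 655, 680.2 and 681 CPM in vehicle. Others above vehicle included RPL31, RPLP0, RPS14, RPS29 and RPSA, and others below included RPL26, RPL28 and RPL38. These members were chosen here by their values.

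With the 31 earlier libraries fitted alone, an alternative added after the data had been seen, the estimated spread was smaller, and edgeR called 14, 8 and 11 members at the low, medium and high dose of Menthae Herba and 8, 5 and 7 at those of Saposhnikoviae Radix. It called 2.91%, 4.59% and 14.0% of all genes for Menthae Herba and 2.44%, 1.07% and 2.83% for Saposhnikoviae Radix. At the high dose of Menthae Herba, 11 of 78 members is about the share of all genes, so that count is no result about the members. In the other comparisons the members' share was above that of all genes. RPS21 was higher than vehicle in all 6 of these comparisons, by 0.17 to 0.24 on the log2 scale with edgeR adjusted p from 2.89e-04 to 0.0232. The 6 comparisons share the vehicle libraries. The member counts did not increase with dose, while the share of all genes called rose with dose for Menthae Herba. With the same libraries, the high against the low dose of each of these extracts gave 0 called members. The share of all genes called between those doses is not given, and a cause was not tested. Vehicle has a set of its own in the library names, so extract treatment and library set cannot be told apart here.

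The spread between replicates also differed by set. The members' median standard deviation within a treatment group was 0.11 on the log2 scale in set 7, beside 0.11 for all tested genes, and 0.05 in set 5, beside 0.08 for all genes. RPL39 had the highest value in both sets, 0.25 in set 7 and 0.10 in set 5.

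Other genes of the translation machinery were taken as 6 lists. In round 3 over round 1 of set 6, 12 of 27 further TOP-type mRNAs and ribosomal protein relatives were higher and 3 lower, with a median of 0.08. RPL36AL, a near copy of RPL36A, rose by 0.38 ± 0.06 beside RPL36A itself at 0.30 ± 0.06, EIF3F, a subunit of initiation factor eIF3, rose by 0.19 ± 0.04, and RPL7L1 fell by 0.17 ± 0.03. FAU, a ubiquitin-like fusion, and the ribosome-bound scaffold RACK1 did not pass the threshold (0.00 ± 0.06 and 0.03 ± 0.03), nor did RPL22L1 and RPL26L1 (-0.09 ± 0.08 and -0.03 ± 0.06). Of 32 ribosome biogenesis genes 15 were higher and 3 lower, led by the nucleolar proteins GNL3 (0.22 ± 0.04), NOP16 (0.23 ± 0.04) and NOLC1 (0.16 ± 0.03).

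Of 41 mitochondrial ribosomal protein genes 8 were higher and 4 lower in the same comparison (MRPS16 -0.19 ± 0.03, MRPS5 0.21 ± 0.04, MRPS35 0.13 ± 0.03). Of 46 short nuclear-encoded subunits of oxidative phosphorylation 14 were higher and 6 lower, among them ATP5MC1 of the ATP synthase ring (-0.35 ± 0.05), COX8A of cytochrome oxidase (-0.26 ± 0.04) and NDUFS5 of complex I (0.31 ± 0.06). Of 16 regulators 3 were higher and 2 lower: MYC rose by 0.21 ± 0.04 and the S6 kinase gene RPS6KB1 by 0.16 ± 0.03, and the translation repressor EIF4EBP2 and LARP1, which binds the TOP tract, fell by 0.13 ± 0.03 and 0.10 ± 0.03. Of the 13 mitochondrially encoded genes MT-ND4L fell by 0.37 ± 0.07 and no other passed. These counts stand beside 12.0% of all genes called higher and 11.0% called lower in this comparison. In sets 5 and 7 no gene of any of the 6 lists was called between these rounds.

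Against vehicle, the ribosome biogenesis list had 1, 15 and 18 of 32 genes higher at the low, medium and high dose of Soyo-san, where 2.04%, 5.57% and 8.03% of all genes were called higher. It had 7, 5 and 10 higher at those of Okbyeongpung-san, with 1 lower at its low dose, where 4.74%, 2.17% and 4.36% of all genes were called higher, again with extract and library part not to be told apart. At the high dose of Menthae Herba, whose libraries lie in the same part as vehicle, 7 of 32 were higher and none lower, where 4.59% of all genes were called higher, among them RRP9 (0.24 ± 0.06), BOP1 (0.23 ± 0.06) and UTP20 (0.22 ± 0.06). In that comparison no member and none of the 27 further TOP-type genes was called. Vehicle has a set of its own in the library names, so extract and library set cannot be told apart in it either.

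Properties of the genes were set beside the change in set 6. Coding length ran from 75 to 885 bases with a median of 375 in the 9 members that fell, and from 210 to 1281 with a median of 470 in the 32 that rose. The correlation of the change with coding length was 0.26 (Pearson r) and 0.06 (Spearman rho) over the 78 members, against 0.05 and 0.08 over 12945 protein-coding genes. With coding GC content it was 0.13 and 0.06 over the members, against -0.13 and -0.21. Counts of the members' pseudogenes, which share sequence with them, took a median of 0.165% of the counts of a member and its pseudogenes in the later and 0.181% in the earlier libraries. The share was largest for RPL23A at 20.6% in the later and 14.3% in the earlier libraries, and RPL36A, RPL22, RPL13, RPL21 and RPS2 also exceeded 5% in both parts and RPL32 in the earlier part, so the values of these 7 depend on how such reads were divided.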

How the data were processed

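Per the labels, total RNA of HT29 cells was sequenced, and the deposited table holds the authors' expected counts per gene for 60 libraries. The submitters' processing notes name FastQC 0.11.9, Trim Galore 0.6.5, STAR 2.7.3a, RSEM 1.3.3 and GRCh38/hg38; for the annotation release and the strand setting, the sources used here give none. The series' design text says that libraries with too little RNA were left out. Of the values above 0, 27.7% were not whole, and all were rounded. Names and coordinates came from GENCODE release 29, which holds 57055 of the gene identifiers, and 56558 had a symbol.

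Counts were tested with edgeR 4.0.16 (limma 3.58.1, R 4.3.3): TMM scaling and the quasi-likelihood test on 57 libraries in 19 groups of 3 (38 residual degrees of freedom), with Benjamini-Hochberg adjustment over the 17049 genes that passed the filter on low counts. Rounds were tested on 54 libraries with group and round within set as terms (30 degrees of freedom, 16954 genes), and the part of the numbering as a term added to the groups (37 degrees of freedom). Levels per library are CPM on a TMM scale over all 60 libraries and differ slightly from the fitted means. The tested genes held 99.95% of counts. Total counts were 19.5 to 41.9 in units of 1e6, and replicates of a group differed by 1.89 to 26.1 times counting noise, so none was counted as a repeat. Alternatives were DESeq2 1.42.0 (its test and its size factors), TMM without the members, no filter, leaving out each replicate, a replicate block, a term for the numbering, the earlier and the later libraries alone, and members summed with their pseudogenes. The code was tested on simulated data. Tables and plots used Python 3.11.15, pandas 2.3.3, numpy 2.4.6 and matplotlib 3.10.9.

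Genes named are a fixed list of readouts, the 5 largest calls in each direction whose groups did not overlap, the 3 smallest p-values of each list of other genes, and the 5 highest and 5 lowest levels per kilobase; RPS29, RPS21, RPL12, RPL37, RPL36A, RPL32 and LARP1 were named after their values were seen. The members and lists were chosen with earlier results of these data known. Replicate numbers came from the labels and equal the round in the library names within sets 5 to 7. The labels do not call a round a batch, and the deviations of same-numbered libraries did not correlate above 0.1 in all 3 pairs of any comparison, so the block was not the main design. Some members are not reported here by name.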

Additional observations from a re-analysis of the deposited data

Results flagged for a closer look

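The change between round 3 and round 1 differed between library sets by the test of the difference itself (edgeR, adjusted over all genes). It differed in 16 members between set 6 and set 5 and in 25 members between set 6 and set 7. Set 6 minus set 5 was 0.41 for RPL28, 0.41 for RPL38, -0.47 for RPS29 and -0.41 for RPL41 on the log2 scale. Set 6 minus set 7 was 0.44 for RPL28, 0.41 for RPL35, -0.61 for RPS29 and -0.56 for RPS27A. Set 6 holds the change from the earlier to the later part, and what else differed between its rounds was not tested.

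The 3 Soshiho-tang libraries entered no test. The members took 5.17% of counts at the low and 4.97% at the medium dose, above the highest vehicle library at 4.91%, and 4.77% at the high dose, below the lowest vehicle library at 4.80%. The gap between the member classes was 0.17 at the low, 0.31 at the medium and 0.46 at the high dose, against at most 0.06 in vehicle. Each dose is 1 library, and all 3 belong to the later part.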

How the results depend on the processing

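No call of a named member described above for the fit without a term for the numbering changed sign under an alternative run. Members not called in that fit could change sign with the term. At the high dose of Soyo-san, RPL26 was at 0.03 without the term and was called lower, at -0.28, with it. The 56 members called between the parts were 55 to 57 under the other scalings, tests and filter. The 41 members called between rounds 3 and 1 of set 6 were 40 with DESeq2's size factors and 41 with TMM without the members. They were 44 in DESeq2's test and 53 without the filter, of which 40 were shared with the 41. The numbers of members called against vehicle moved as follows, at the high, medium and low dose. For most of these alternatives the share of all genes called is not given. The counts therefore show how far the calls moved and are no result about the members. Without the filter on low counts they were 4, 5 and 12 for Menthae Herba, 4, 4 and 9 for Saposhnikoviae Radix, 24, 31 and 9 for Soyo-san and 18, 11 and 15 for Okbyeongpung-san, with 1 at the high and 1 at the low dose of Saengmaek-san and 7 at the medium and 22 at the low dose of Guibi-tang. The same fit called 1 member between the doses of Guibi-tang, 1 between Menthae Herba and Saposhnikoviae Radix, 13 between the rounds of set 7 and 42 and 40 in the differences of set 6 from sets 5 and 7. DESeq2's test called 1 member at the high dose of Menthae Herba, 2 at the low dose of Guibi-tang, 7 at the high dose of Soyo-san and 1 between the rounds of set 7. TMM scaling without the members called 0 at the low dose of Soyo-san. With a term for the numbering the counts were 2 for the high dose of Menthae Herba, 1 and 11 for the medium and low dose of Soyo-san and 3, 10 and 9 for Okbyeongpung-san, all of them lower. The earlier libraries alone gave 11, 8 and 14 for Menthae Herba, 7, 5 and 8 for Saposhnikoviae Radix, 13 and 3 for the high and medium dose of Saengmaek-san and 1 for the high dose of Guibi-tang. The cause of these moves was not tested. Leaving out 1 replicate gave 1 to 3, 2 to 8 and 0 to 0 calls for Soyo-san, 0 to 4, 0 to 2 and 0 to 2 for Okbyeongpung-san, and 0 to 2 and 0 to 14 for the medium and low dose of Guibi-tang, the 14 without its low-dose replicate 1, the library of that group in the earlier part. Leaving out any 1 of the vehicle libraries lowered the count at the medium dose of Soyo-san to 2 and at the low dose of Okbyeongpung-san to 1. With a replicate block the counts were 5, 8 and 1 for Soyo-san and 1, 2 and 5 for Okbyeongpung-san; deviations of same-numbered libraries correlated above 0.1 in all 3 pairs in 0 of 26 comparisons, and in 3 comparisons every library correlated best with its own number. With 3 libraries per group and vehicle in 1 part of the numbering, changes smaller than the fitted 95% intervals were not detectable.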
